A study of Homo sapiens with 4 samples.

Results

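The epithelial keratin genes described here are KRT7, KRT8, KRT18, KRT19, KRT20, KRT23, KRT80 and KRT81, 8 of 29853 genes with a curated RefSeq transcript on chromosomes 1 to 22 and X. They were chosen by name, with earlier results of these data known. Their peaks are those whose assigned gene symbol is one of these names. HCT116 cells, a human colorectal carcinoma line, were fixed with formalin and received no treatment. Chromatin immunoprecipitation sequencing (ChIP-seq) was performed with antibodies against H3K27ac, acetylated lysine 27 of histone H3, which marks active promoters and enhancers, and against HSF1, the transcription factor of the heat shock response. The 4 libraries were an immunoprecipitate (IP) and an input for either antibody, with 1 library in each group. There was no replicate, so every value is a description of 1 line and 1 library, and the intervals given cover counting error only. The H3K27ac list held 15789 peaks with 485046 tags (sequenced fragments inside peaks), and the HSF1 list 13127 peaks with 317289 tags. Total reads per library were not analysed here.

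Keratins are the intermediate filament proteins of epithelial cells, and a filament is built from heterodimers of an acidic type I and a basic or neutral type II keratin. The type II genes lie in a cluster on chromosome 12 and most type I genes in a cluster on chromosome 17, with KRT18 as the type I gene that lies beside KRT8 in the type II cluster. KRT8 and KRT18 form the founding keratin partners of simple epithelium, which are joined by KRT19 and, in the intestine, by KRT20. KRT7 is typical of ductal epithelium, KRT81 of hair, and KRT20 is used in pathology as a marker of colorectal tumours.

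The H3K27ac mark was listed at 6 of the 8 genes, namely KRT8, KRT18, KRT19, KRT20, KRT23 and KRT80 (75%, exact 95% Clopper-Pearson interval 34.9 to 96.8), against 24.7% of all genes. KRT7 and KRT81 had no H3K27ac peak. No HSF1 peak was assigned to any of the 8 genes (interval 0 to 36.9%), against 13.6% of all genes. On chromosome 12 a peak was assigned to 28.4% of genes for H3K27ac and 12.8% for HSF1, and on chromosome 17 to 30.1% and 6.10%. The genes lie side by side and KRT8 and KRT18 share peaks, so they are not independent cases.

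The 6 genes had 22 H3K27ac regions in all, 11 on each chromosome, with 801 tags (95% Poisson interval 746 to 858) over 36.6 kb. These regions ranged from 15 to 93 tags with a median of 30.5, against a median of 24 in the list. Their fold enrichment, the peak caller's ratio of IP over local background, ran from 3.85 to 9.54 with a median of 6.94, against 6.73 in the list. The keratin peaks thus lay across most of the range of the list and reached its upper part in tags at KRT23, KRT20, KRT80 and the pair of KRT8 and KRT18, each with a peak above the 90th percentile. Peaks on chromosome 17 held more tags than those on chromosome 12 over the whole list (median 36 against 23), and the part of this in the tags at KRT20, KRT23 and KRT19 was not tested. The false discovery rate of the 22 regions ran from 9.19 to 100%. It rose with the score in the H3K27ac list, where 258 peaks stood at 100%, and among the keratin regions the 2 of highest score were at 100%. These were the 93-tag peak of KRT23 and the 74-tag peak of KRT20.

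**Figure D1:**
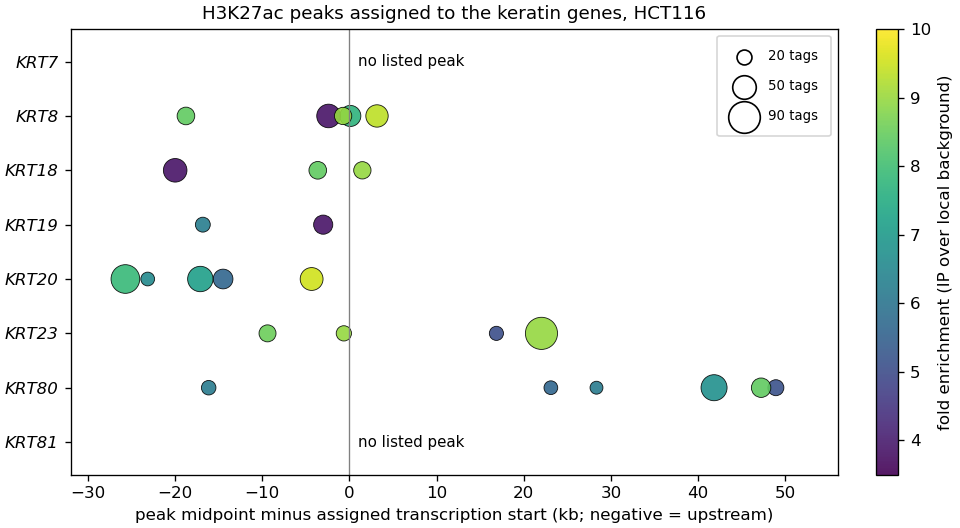
H3K27ac peaks assigned to each of the 8 keratin genes, by the distance in kb from the assigned transcription start to the peak midpoint (negative values lie upstream), with circle area for tags and colour for fold enrichment. All KRT20 and KRT19 peaks lie upstream of the start, 5 of 6 KRT80 peaks lie downstream, and KRT7 and KRT81 have none.

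KRT20 carried the most tags of the 8 genes, with 5 peaks and 231 tags (95% interval 202 to 263). This was rank 361 of the 7360 genes with an H3K27ac peak. All 5 peaks lay upstream of its start on chromosome 17 (hg19, position 39041494, minus strand), with midpoints at -4.34, -14.5, -17.1, -23.1 and -25.7 kb (negative values lie upstream of a start). The nearest peak (39044872 to 39046805) held 47 tags at 9.54-fold, the highest fold among the 22 regions and the 96.6th percentile of the list. The farthest (39065683 to 39068726) was of intergenic class and held 74 tags at 7.86-fold, and the 3 between them held 35, 58 and 17 tags at 5.61-, 7.14- and 6.59-fold. No promoter-class peak, which in these lists means a midpoint within 2 kb of a start, was assigned to KRT20. The nearest edge of a peak was 3.38 kb from its start.

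KRT23, a type I keratin and the next gene along the chromosome, had 4 peaks with 158 tags (interval 134 to 185). Its widest peak (39069493 to 39073506) was the strongest keratin peak by tags, with 93 tags at 8.98-fold, the 98.2nd percentile of the list by tags. Its deposited false discovery rate was 100%. The midpoint of this peak lay at 22.0 kb from the KRT23 start at 39093522 and at -30.01 kb from that of KRT20, so it was assigned to the nearer of these starts. A second downstream peak held 18 tags at 5.05-fold. At the KRT23 promoter a peak of 21 tags at 8.98-fold (39093991 to 39095100) began 93 bp before the start at 39093898, and another of 26 tags at 8.55-fold lay at -9.40 kb.

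Joined over gaps of up to 10 kb, the 5 KRT20 peaks and the 2 downstream KRT23 peaks formed a region of 32.2 kb (39044872 to 39077066) with 342 tags. It held both keratin peaks with a false discovery rate of 100%. Each region was scored by adding up width times fold over its peaks. By this score the KRT20 and KRT23 region took rank 67 of 10295. It lay above the point where the scaled curve has a slope of 1, as did 279 regions in all. Thus 2 of the 8 keratin genes were assigned to such a region, against 1.26% of all genes, and both rest on the same region. The KRT20 and KRT23 region kept a rank between 57 and 87 with peaks joined within 5 or 20 kb, with ranking by tags and without promoter-class peaks. With peaks joined within 20 kb, however, 4 of the 8 genes lay above the point, since the region of KRT8 and KRT18 then took rank 280 of 8889 with 328 above. The KRT23 promoter and upstream peaks formed a separate region of rank 1803.

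**Figure D2:**
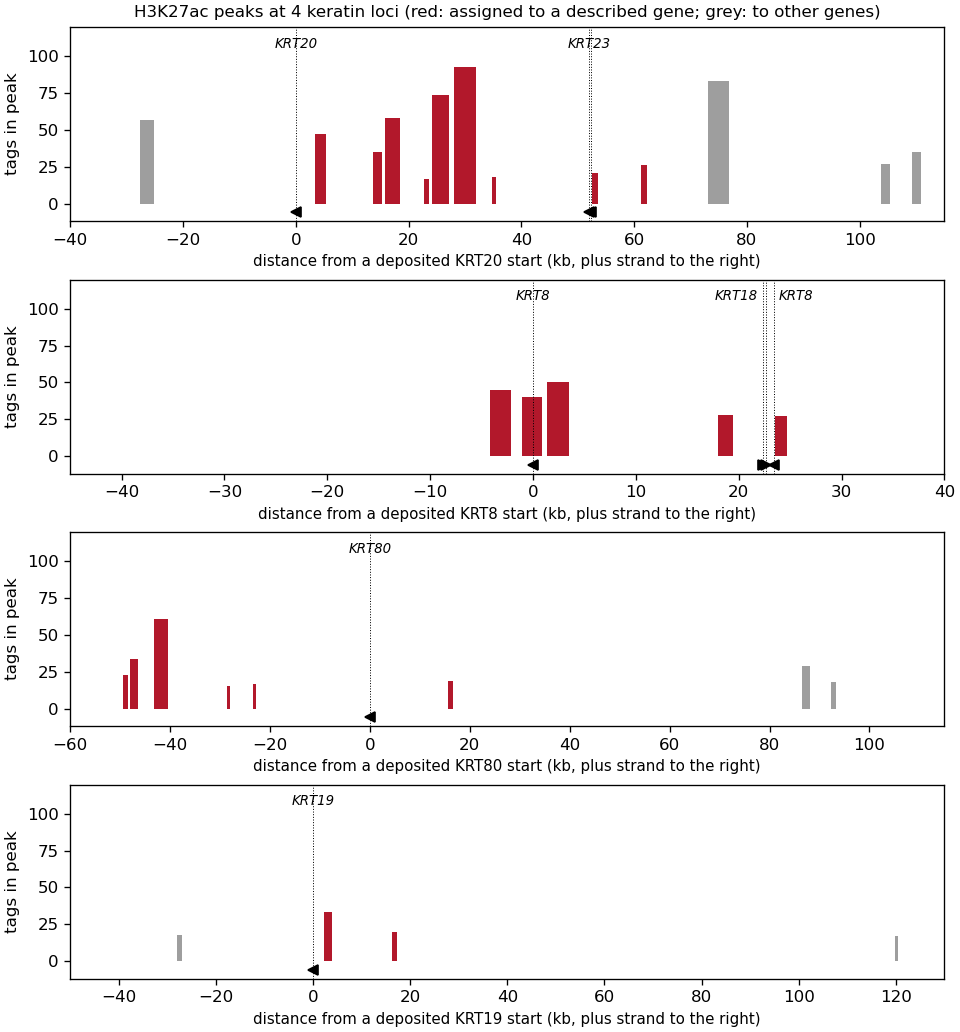
Tags in H3K27ac peaks (bars as wide as the peak) around KRT20 and KRT23, KRT8 and KRT18, KRT80, and KRT19, by the distance in kb from a deposited start, with arrowheads and dotted lines at the starts of the described genes and grey bars for peaks assigned to other genes. The 5 KRT20 peaks and the 93-tag KRT23 peak lie between these starts, whereas the KRT8 peaks sit on and beside a listed start.

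KRT8, the basic keratin of simple epithelium, differed in that its peaks lay on and close to its listed starts. It had 5 peaks with 190 tags (interval 164 to 219) on chromosome 12. Only 3 of its 4 RefSeq transcripts were listed with a peak, and the start of the remaining one was not examined. The 2 listed starts lay on the minus strand at 53320253 and 53343644. A promoter-class peak of 40 tags at 7.69-fold (53319192 to 53321126) covered the former start. It was flanked by an intronic peak of 45 tags at 9.34-fold (53316076 to 53318119) and by an upstream peak of 50 tags at 3.85-fold (53321589 to 53323727). The last of these was high in tags (90.7th percentile) and among the lowest of the list in fold enrichment (0.722nd percentile). The gaps between these 3 peaks were 1.07 and 0.462 kb, and they formed a region of rank 460 (7.65 kb, 135 tags).

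KRT18, the type I partner of KRT8, had no peak of its own. Its 3 peaks, with 105 tags (interval 85.9 to 127), were all also assigned to KRT8. The starts of KRT18, at 53342654 and 53342901 on the plus strand, lie within 1 kb of the outer KRT8 start. Of the 3 shared peaks, 1 was assigned to KRT8 through that outer start and 2 through its start at 53320253. The peak of 27 tags at 8.98-fold (53343830 to 53344925) was of promoter class for both genes, at 1.48 kb from a KRT18 start and at -0.733 kb from the outer KRT8 start. A second peak of 28 tags at 8.42-fold (53338286 to 53339745) lay at -3.64 kb from KRT18, and the third was the 50-tag peak described at KRT8. The second peak was listed for KRT8 at -18.8 kb, although it lay 4.63 kb downstream of the outer KRT8 start. With regions of a single member only, an alternative chosen after seeing the data, KRT18 would have none and 5 of the 8 genes would keep a peak.

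The promoter sequence of KRT8 is shown for its start at 53320253 because an H3K27ac peak covered that start, and that of KRT20 because no peak was listed at it. RefSeq promoter sequences (GRCh38.p14) were at hand for these 2 genes of the 8. Each is the 250 bases before the start, read 5′ to 3′ on the minus strand, with capitals marking matches to the motifs searched. The RefSeq start of KRT8 lies 23391 bp inside the outermost KRT8 start, the same spacing as between the 2 starts in the deposited list. The sequence describes this KRT8 start only. The start of the KRT8 transcript without a listed peak was not examined and may differ.
KRT8, chr12:52926470-52926719: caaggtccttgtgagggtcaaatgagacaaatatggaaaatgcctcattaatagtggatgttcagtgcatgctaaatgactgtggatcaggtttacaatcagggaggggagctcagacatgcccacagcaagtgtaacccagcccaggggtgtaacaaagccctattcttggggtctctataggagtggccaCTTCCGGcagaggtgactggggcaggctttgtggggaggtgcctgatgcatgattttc
KRT20, chr17:40885243-40885492: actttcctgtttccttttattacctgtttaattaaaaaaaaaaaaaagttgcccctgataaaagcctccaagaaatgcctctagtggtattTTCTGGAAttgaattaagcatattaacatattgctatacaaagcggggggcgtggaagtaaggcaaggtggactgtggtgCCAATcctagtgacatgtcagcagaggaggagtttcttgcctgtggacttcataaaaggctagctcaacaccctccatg

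Both sequences shown were poor in CpG, with 1 CpG at this KRT8 start and 2 at KRT20 against a median of 11 in all 35116 promoters of the same length. Their GC content was 50.4 and 41.2% against a median of 58.0%. Motifs were searched on both strands. The KRT8 promoter held a match to CCGGAAG (the ETS core, in 8.52% of all promoters) on the other strand at bases -58 to -52. The KRT20 promoter held CCAAT (in 32.0%) at -79 to -75 and TTCNNGAA at -159 to -152, which is a pair of inverted heat shock element units and occurs in 6.62% of promoters. The opposite arrangement GAANNTTC (5.78%) matched in neither. Neither promoter matched TATAAA (the TATA box, 10.7%), GGGCGG (the GC box, 42.6%), TGANTCA (AP-1, 6.57%), CCACCC (a KLF site, 31.3%) or AACNNGTT (grainyhead, 3.0%). A match describes the letters and is no evidence of binding.

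KRT80, a type II keratin of many epithelia, had the most peaks, 6 with 169 tags (interval 144 to 196), and none near its start at 52585798. Of these, 5 lay downstream, between 23.1 and 48.9 kb from the start, and were of intergenic class, and 1 of 19 tags at 6.17-fold lay at -16.2 kb. The strongest by tags (52542513 to 52545443) held 61 tags at 6.73-fold, 41.8 kb from the start, and the highest in fold (52537777 to 52539382) held 34 tags at 8.42-fold. The remaining 3 downstream peaks held 23, 15 and 17 tags. The 3 farthest peaks formed a region of rank 564 (9.08 kb, 118 tags). A peak assigned to KRT80 is the nearest by distance and not a measured target.

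KRT19, a keratin without the usual tail domain, was the least marked of the 6 genes. Its 2 peaks held 53 tags (interval 39.7 to 69.3). The nearer (39686733 to 39688420, at -3.02 kb from the start at 39684560) held 33 tags at 3.85-fold and the farther (39700848 to 39701923) 20 tags at 6.24-fold. Both were in the lower part of the list by score (12.7th and 6.77th percentile), and neither passed a score of 100.

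**Figure D3:**
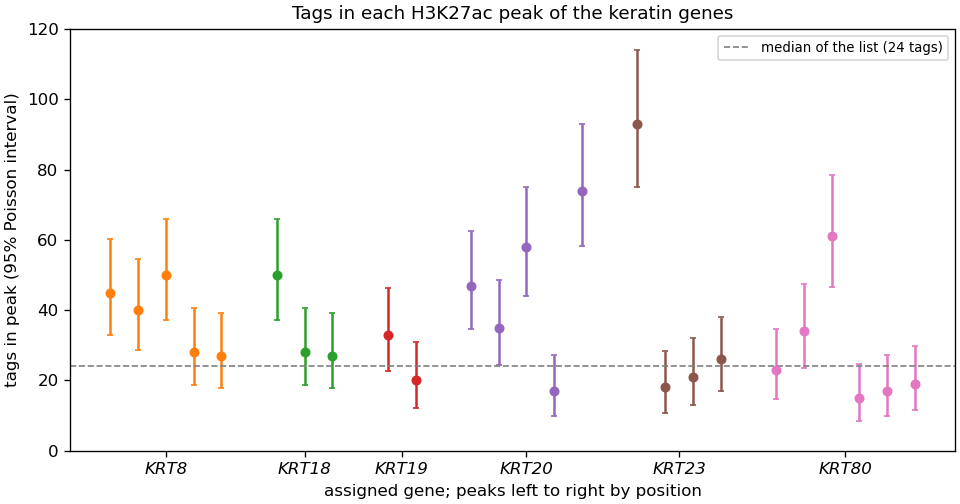
Tags in each H3K27ac peak of the 6 keratin genes with a peak (points, with exact 95% Poisson intervals), ordered by position within a gene, with the list median of 24 tags as a dashed line. KRT18 peaks are also drawn at KRT8, the highest peak is that of KRT23 at 93 tags, and both KRT19 intervals include the median.

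By summed tags the order was KRT20 (231), KRT8 (190), KRT80 (169), KRT23 (158), KRT18 (105) and KRT19 (53). The counting intervals of neighbours overlapped from KRT20 down to KRT23, whereas those of KRT23 and KRT18 did not, nor did those of KRT18 and KRT19. In tags per kb of peak the genes were close, from 19.2 at KRT19 to 22.7 at KRT23, so the order followed the covered length, which was 10255 bp at KRT20 and 2764 bp at KRT19. By highest fold, KRT20 (9.54) and KRT8 (9.34) led, KRT18 and KRT23 followed (8.98 each), and KRT80 (8.42) and KRT19 (6.24) were lowest. The median over the 6 genes was 8.98, against 8.83 over the other type I and 7.86 over the other type II keratin genes with a peak, and 7.25 over all genes with a peak. These sets are unlike in number of peaks, with a median of 4.5 per gene for the 6 genes and 1 for each of the others. A highest value tends to rise with the number of peaks, and over single regions the median was 6.94 against 6.73 in the list.

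The number and place of the peaks were then set beside the list. KRT8, KRT20 and KRT80 had 5 or more H3K27ac peaks, a limit chosen after their values were seen, as had 2.49% of all genes. A promoter-class peak was assigned to KRT8, KRT18 and KRT23, 3 of 8 genes against 9.99% of all genes. Of the 22 regions, 9 were upstream (40.9%, interval 20.7 to 63.6), 9 intergenic (40.9%), 3 at promoters (13.6%, interval 2.91 to 34.9) and 1 intronic (4.55%, interval 0.115 to 22.8). In the whole list 18.2% were upstream, 30.6% intergenic, 16.7% at promoters and 33.4% intronic. The single intronic region was that of KRT8.

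The genes whose H3K27ac values were most like those of KRT20 were LINC00243, AP3S1, LINC00917, GNG7 and S100A6. Likeness was the Euclidean distance over log2 number of peaks, log2 summed tags, highest fold and log2 smallest distance to the start, each scaled to its SD over 7360 genes, and ran from 0.105 to 0.461 for these 5. LINC00243 had 5 peaks with 247 tags and a highest fold of 9.47, and S100A6, a calcium-binding protein gene, 5 peaks with 162 tags and 9.54-fold.

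HSF1 peaks were far from the 6 keratin genes with a listed start. Between a deposited start and the nearest HSF1 peak lay 231 kb at KRT80, 633 kb at KRT8 and KRT18, 1577 kb at KRT20, 1629 kb at KRT23 and 2220 kb at KRT19. None of the 22 H3K27ac regions met an HSF1 peak (interval 0 to 15.4%), as was so for nearly all of the list, where 0.260% did. From the edge of a region the nearest HSF1 peak was 182 to 2236 kb away, with a median of 1119 kb against 279 kb over the list. The chromosome 17 keratin genes lay in a stretch of 5029 kb without a listed HSF1 peak, and those on chromosome 12 in one of 1622 kb. Among the gaps between neighbouring HSF1 peaks (median 58.5 kb) these stood at the 99.9th and the 97.9th percentile. Each was picked as the gap around a keratin span without an HSF1 peak (667 and 784 kb), so it had to be longer than that span. A high percentile was therefore fixed in advance and is a description only. Over the whole chromosomes HSF1 peaks were listed at 3.8 per Mb (chromosome 17) and 2.87 per Mb (chromosome 12), against 4.43 per Mb over the list.

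**Figure D4:**
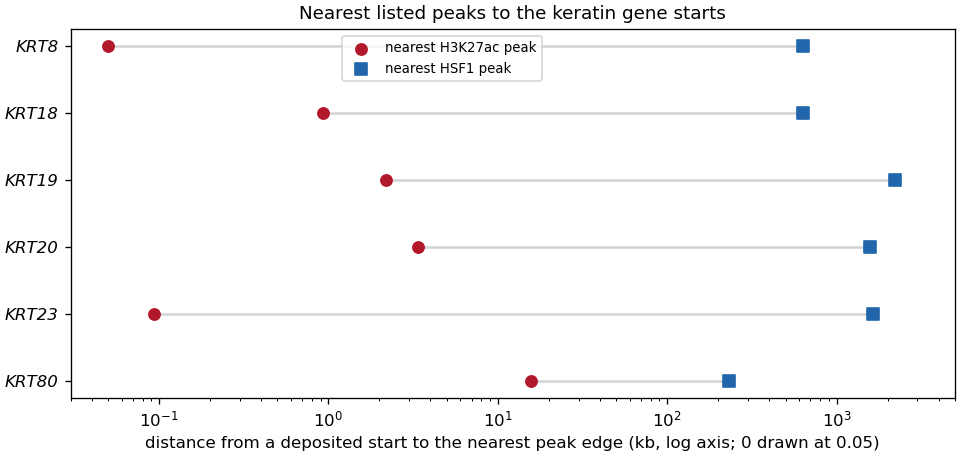
Distance in kb on a log axis from a deposited start to the nearest edge of an H3K27ac peak (red circles) and of an HSF1 peak (blue squares) for the 6 keratin genes with a deposited start. H3K27ac peaks lie within 15.7 kb of every start and HSF1 peaks beyond 231 kb.

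From the outermost ends of the keratin genes with a listed peak on chromosome 17 (667 kb), 25 H3K27ac peaks were listed, 37.5 per Mb against 13.8 over the chromosome. Since genes with a peak set these bounds, the densities are a description of the span. On chromosome 12 (784 kb) there were 14, or 17.9 per Mb against 6.96. Many of the peaks on chromosome 17 were assigned to keratin-associated protein genes, whose products cross-link hair keratins, such as KRTAP4-9 with a promoter-class peak of 94 tags at 7.69-fold.

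The keratin genes without a peak were described by their neighbours. In the order of RefSeq genes, KRT7 lies between KRT80 and KRT86, and KRT81 lies within the span of KRT86. Their hg19 positions were not used here. KRT86, a hair keratin gene, was assigned 2 intronic peaks of 29 tags at 8.98-fold and 18 tags at 6.17-fold, and KRT83, the next hair keratin, a promoter peak of 24 tags at 7.86-fold and an intronic one of 19 tags at 6.59-fold. Whether the KRT86 peaks lie closer to KRT81 was not analysed here. Hair keratin genes are near-identical in parts, and whether reads there were lost or split in alignment was not tested.

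Among the other keratin genes 10 of 47 had an H3K27ac peak. Of 25 other type I genes 5 had a peak (20%, interval 6.83 to 40.7), namely KRT39 (83 tags at 9.54-fold, 1 intronic peak), KRT12 (57 tags at 8.98-fold), KRT31 (8.83-fold), KRT40 (7.86-fold) and KRT13 (5.61-fold). Of 22 other type II genes 5 had one (22.7%, interval 7.82 to 45.4), namely KRT6C (10.7-fold), KRT86, KRT83, KRT75 (6.76-fold) and KRT6A (6.17-fold). The basal keratins KRT5 and KRT14 and the suprabasal skin keratins KRT1 and KRT10 had none. The share in both lists was close to the 24.7% of all genes. None of the 47 had an HSF1 peak, and over all 55 keratin genes the count of 0 has an interval of 0 to 6.49%. Since keratin genes lie in clusters on chromosomes 12 and 17, they are not independent cases, and this interval is too narrow. The KRT39 and KRT12 peaks are the next listed ones on either side of KRT20 and KRT23, those of KRT13 and the pseudogene KRT42P flank KRT19, those of NR4A1 and KRT86 flank KRT80, and those of KRT6A and IGFBP6 flank KRT8 and KRT18.

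**Figure D5:**
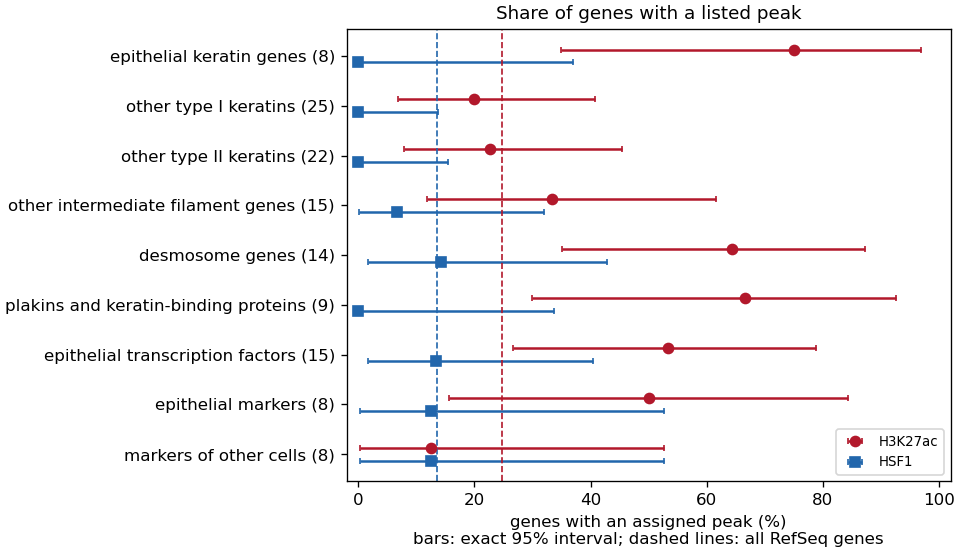
Share in percent of genes with an assigned H3K27ac (red circles) and HSF1 (blue squares) peak in each gene list, with exact 95% intervals, the number of genes in brackets and dashed lines at the shares of all genes (24.7% and 13.6%). The epithelial keratin genes are highest for H3K27ac at 75%, but their interval (34.9 to 96.8%) includes the shares of the plakins (66.7%) and the desmosome genes (64.3%). The genes and lists were chosen with earlier results of these data known. The 3 keratin lists and the plakins are at 0 for HSF1.

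Genes that anchor or accompany keratin filaments were marked in several cases. Of 14 desmosome genes 9 had an H3K27ac peak (64.3%), highest at DSP (8.72-fold), which ties keratin to the desmosome, DSC3 and PERP (8.42-fold each) and DSG1 (7.86-fold). HSF1 peaks were assigned to DSP (5.32-fold, at 15.6 kb) and PKP2 (highest 4.53-fold, at -235 kb). The PKP2 distance is like the 231 kb between KRT80 and its nearest HSF1 peak, which was assigned to ACVR1B. A peak at such a distance thus counted for PKP2 and not for KRT80. Assignment goes by distance and is not a measured target. Of 9 plakins and keratin-binding proteins 6 had one (66.7%), highest at PLEC (11.1-fold), DST (10.7-fold), MACF1 (7.30-fold) and EVPL (6.97-fold), with no HSF1 peak. Other intermediate filament genes were at 5 of 15 (33.3%), led by SYNM (10.01-fold), BFSP1 (8.24-fold) and NEFM and LMNA (7.86-fold each). VIM was among the genes of this list without an H3K27ac peak, as were the lamin genes LMNB1 and LMNB2. NEFM had HSF1 peaks (highest 4.87-fold, at -179 kb). Epithelial transcription factors were at 8 of 15 (53.3%), led by EHF (9.89-fold), ELF3 (9.40-fold), KLF4 (8.98-fold) and KLF5 (8.42-fold). GRHL2 (4.67-fold, at 90.9 kb) and TP63 (3.77-fold, at -154 kb) had an HSF1 peak. The median of the highest fold was 7.69 for the desmosome genes, 7.14 for the plakins, 7.86 for the other filament genes and 8.25 for the transcription factors, against 7.25 over all genes with a peak. The median number of peaks per gene was 2 for the desmosome and other filament genes and 4.5 for the plakins and transcription factors. Over all genes with a peak it was 1.

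The label of the line was checked against defining markers. Among 8 epithelial markers, CLDN4 (10.1-fold), CLDN7 (7.86-fold), ESRP1 (7.26-fold) and CDH1 (6.25-fold) had an H3K27ac peak, whereas EPCAM, VIL1, CEACAM5 and LGALS4 had none. CEACAM5 had an HSF1 peak at 21.8 kb from its start. Of 8 markers of leukocytes, fibroblasts, endothelium and muscle, PTPRC was the only one listed. It had 1 H3K27ac peak of 25 tags at 6.73-fold, 91.6 kb from its start, and an HSF1 peak at 3.54-fold, 85.7 kb from its start.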

How the data were processed

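ChIP-seq peak lists of the H3K27ac and the HSF1 IP of HCT116 cells were analysed, 1 per IP. Per the labels, the authors used FastQC and Bowtie2 2.2.7 with hg19, and the study's methods name MACS for peaks of IP over input. Read filters were not stated, and the inputs enter only through the deposited values. The tag counts per peak were deposited as whole numbers, not scaled to depth. The deposited score is 10 times the negative logarithm of the caller's p-value, with minima of 50 (H3K27ac) and 30 (HSF1). Fold enrichment is a ratio to the local background, as the authors deposited it. The percent values deposited as false discovery rate come from the caller's exchange of IP and input. Peak width and distance to the start are the authors' values in bp.

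Of 39350 and 24461 rows, 1 entry per region and symbol was kept, at the nearest of the starts deposited for that region. Distances run from the peak midpoint. Gene symbols were brought up to date through RefSeq accessions (GRCh38.p14), which matched 7346 of 7390 and 4066 of 4101 symbols, and no position was taken from that table except with the promoter sequences. The keratin genes, the 8 comparison lists, the motifs and the rule for named genes were chosen with earlier results of these data known. Named were the 8 genes, up to 4 genes per list by highest fold, genes with an HSF1 peak, flanking genes and the 5 genes most like the gene with the most tags. Other genes, such as KRT13 and VIM, were named after their values were seen. With 1 library per group no test was made. Intervals are exact at 95% (Clopper-Pearson for shares, Poisson for tags) and cover counting error only, since reads without molecular identifiers are not independent molecules. Joining, overlap, nearest distance and intervals were tested on simulated data. Alternatives covered scores, folds, tags, classes, stitching, ranking and overlap. Scripts ran in Python 3.11.15 with scipy 1.17.1, pandas 2.3.3, matplotlib 3.10.9 and numpy 2.4.6.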

Additional observations from a re-analysis of the deposited data

How the results depend on the processing

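No replicate could be left out, since each group holds 1 library, and no paired analysis was possible because each group has only replicate 1, so no number beyond that one is shared. With promoter-class peaks only, 3 of the 8 keratin genes and 2 of the 47 other keratin genes kept an H3K27ac peak, against 6 and 10. At a score of 100 or more, 9 of 22 regions with 487 of 801 tags remained, at 4 of the 8 keratin genes, and 2 of the other keratin genes kept a peak. The median fold enrichment was 8.98 with the highest peak of each gene, against 6.94 over all regions. With peaks joined within 20 kb, 4 of the 8 genes lay above the tangent point, against 2, because the KRT8 and KRT18 peaks then formed a region of rank 280 of 8889. These are the 7 values that moved, and the other 16 stayed within 1.5 times the reported count or, for the median fold, inside its 95% interval of 5.61 to 8.55. The counts of 0 for HSF1 stayed at 0 within 100 kb of a start or of a region. Distances from a start could be taken for 6 genes only, since KRT7 and KRT81 had no listed start. The count of genes with an H3K27ac peak within 20 kb of a start could therefore not exceed 6.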
